A study of Mus musculus with 12 samples.

Results

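The nuclear genes for the oxidative phosphorylation machinery were followed in mouse liver under a high-fat diet and under loss of 1 copy of Sirt1. The members were all array probes named for a complex I subunit (Nduf genes), for succinate dehydrogenase (Sdha to Sdhd), for complex III (Uqcr genes), for cytochrome c (Cycs), for the nuclear subunits of cytochrome c oxidase (Cox4 to Cox8) or for ATP synthase (Atp5 genes). The naming rule gave 83 genes on 116 of the 41174 probes of the array, and each gene was represented by its brightest probe. Of the 83 genes, 35 belong to complex I, 4 to complex II, 7 to complex III, 1 is cytochrome c, 17 belong to complex IV and 15 to complex V. The remaining 4 matched by name but are not subunits: Cox7a2l, a factor that joins complexes III and IV, Ndufaf1, a complex I assembly factor, Dmac2l (Atp5s on the array) and Emc8 (Cox4nb on the array), a protein of the endoplasmic reticulum that neighbours Cox4i1. The 13 subunits encoded in mitochondrial DNA were not analysed here.

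Liver RNA came from male C57BL/6 mice, 1 array per mouse and 3 biological replicates per group. The groups were Sirt1 heterozygotes on the high-fat diet (Het HF), Sirt1+/+ mice on the high-fat diet (WT HF), heterozygotes on the low-fat diet (Het LF) and Sirt1+/+ mice on the low-fat diet (WT LF), each fed for 34 weeks. The labels give neither the age of the mice nor which piece of Sirt1 the mutant allele lacks. A level below is the log2 ratio of a probe's processed intensity to the 75th percentile of its array, so 0 is the level of that percentile and 1 unit is a factor of 2.

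Complexes I and II take electrons from NADH and succinate, pass them through ubiquinone to complex III and on through cytochrome c to complex IV, where oxygen is reduced. The proton gradient that complexes I, III and IV build drives ATP synthase, complex V. In hepatocytes this chain burns the reducing equivalents of fatty acid oxidation and supplies ATP for gluconeogenesis and urea synthesis. Sirt1 is a NAD-dependent deacetylase, known for acting on PGC-1alpha, a coactivator of respiratory chain genes.

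Per array, 58.0 to 71.6% of non-control spots exceeded background clearly by the scanner's flag. The 75th percentile lay at an intensity of 975.1 to 1688.5 on HF arrays and of 1186.2 to 2006.4 on LF arrays. Sirt1 itself was lower in every Het array than in every WT array of the same diet on both of its probes. On the first probe it stood at -1.66, -1.59 and -1.69 in Het HF and at -1.14, -0.81 and -0.92 in WT HF, and at -1.13, -1.18 and -1.12 in Het LF, against -0.69, -0.64 and -0.31 in WT LF. The difference over both diets was -0.64 ± 0.09 (SE), with an adjusted p of 0.355. The second probe gave -0.44 ± 0.09. Whether either probe lies in the deleted piece is not given. All 9 tested hepatocyte markers were well above background on 12 of 12 arrays. The HF arrays were scanned on 1 day and the LF arrays on another, so diet and scan day cannot be told apart in any diet difference below.

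Of the 83 members, 81 could be tested, and 80 were well above background on 12 of 12 arrays. The 81 are therefore nearly the whole set and not a subset picked for being high in 1 group. Cox4i2, the lung form of subunit 4, was well above background on 3 of 12 arrays, and Cox8c, the testis form of subunit 8, on 0 of 12. Cox4i2 reached -3.29 on 1 Het HF array, while the other 11 lay between -7.02 and -5.15, and both genes were left untested.

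Few of these genes passed the threshold between HF and LF livers. In heterozygotes Cycs rose and Cox7c fell in HF livers, 2 of 81 members (2.47%), where 15.8% of the 17043 genes tested passed the same threshold (adjusted p under 0.05, limma), 7.6% higher and 8.25% lower. In Sirt1+/+ mice 1 of 81 passed, Cox7c, which was lower, against a background of 5.89%, with 2.72% higher and 3.16% lower. With both genotypes in the contrast 4 of 81 passed (4.94%), Cycs, Cox7a1 and Ndufs5 higher and Cox7c lower in HF, against 30.2% of all genes, 13.4% higher and 16.7% lower. The members' share lay below the background in each diet comparison, and that difference was not tested. The split of all called genes depended on the scaling. With arrays scaled to their median, 76.0% of the calls in Sirt1+/+ mice were higher, against 46.3% as reported, and over both genotypes 62.8%, against 44.5%. With quantile normalization the share in Sirt1+/+ mice was 61.8%. On the median scale Cox7c was not called in Sirt1+/+ mice (adjusted p = 0.0805) and Cycs was.

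The sequences below are the array probes of members described further on, shown because probes of the same gene did not always give the same answer. All read 5′ to 3′ as on the array. In the pair for Atp5h the capitals mark the 20 bases that both probes share. The others are in lower case throughout.
Cycs, brightest probe, mm7 chr6:50525306-50525365, minus strand: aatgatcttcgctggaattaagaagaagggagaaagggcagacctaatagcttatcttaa
Cox7a1, no position in the files: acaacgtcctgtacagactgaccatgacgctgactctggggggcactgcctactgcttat
Cox4i1, mm7 chr8:119308998-119309057, plus strand: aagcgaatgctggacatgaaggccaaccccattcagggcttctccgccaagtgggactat
Atp5h, brightest probe, mm7 chr11:115524865-115524924, minus strand: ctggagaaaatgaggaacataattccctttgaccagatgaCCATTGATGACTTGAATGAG
Atp5h, second probe, mm7 chr11:115524825-115524884, minus strand: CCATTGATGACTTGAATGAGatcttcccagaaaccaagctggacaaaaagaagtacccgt
Ndufab1, brightest probe, mm7 chr7:118015882-118015941, minus strand: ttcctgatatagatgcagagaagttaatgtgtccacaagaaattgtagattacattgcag

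Cytochrome c, the soluble carrier between complexes III and IV and a trigger of apoptosis when released, was higher on the high-fat diet. Its brightest probe stood at 6.06, 6.07 and 5.99 in Het HF livers, against 5.63, 5.66 and 5.62 in Het LF livers. In Sirt1+/+ mice it stood at 6.06, 5.99 and 6.20 on HF and at 5.77, 5.81 and 5.57 on LF. All 6 HF arrays lay above all 6 LF arrays. Only 1 other member, Cox7c, separated the diets this way over both genotypes, on the lower side, while 6.01% of all genes did so as higher and 7.41% as lower, 13.4% in all. The difference was 0.41 ± 0.11 (SE) in heterozygotes, a factor of 1.33 (adjusted p = 0.0304). That call was lost without Het HF replicate 1 or 2 or without any 1 Het LF array, with differences of 0.39 to 0.42 and adjusted p of 0.0699 to 0.0945. It was also lost at an unchanged difference without the dim-probe filter (adjusted p = 0.0859) and with only the heterozygote groups fitted (adjusted p = 0.0694). It was 0.36 ± 0.11 in Sirt1+/+ mice, which did not pass (adjusted p = 0.0697), and 0.38 ± 0.08 over both genotypes (adjusted p = 0.00489).

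Of the 3 Cycs probes, the brightest passed and the other 2 did not. Those 2 lie 713 and 733 bases further along the minus strand and share 40 bases with each other, so they are close to 1 measurement. The 3′-most of them stood at 4.22, 4.31 and 4.41 in Het HF and at 4.19, 4.14 and 4.24 in Het LF, groups that overlap. It stood at 4.37, 4.45 and 4.67 in WT HF and at 4.41, 4.38 and 4.12 in WT LF. Fitted as their own rows, the other probes differed by 0.16 ± 0.09 (adjusted p = 0.202) and 0.11 ± 0.09 (adjusted p = 0.361) over both genotypes. In heterozygotes they gave 0.12 ± 0.13 and 0.06 ± 0.12. All of these were positive and none passed, and whether the probes differ from each other was not tested. With the 3 probes averaged Cycs was at 0.22 over both genotypes (adjusted p = 0.0546) and at 0.20 in heterozygotes (adjusted p = 0.236).

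**Figure D1:**
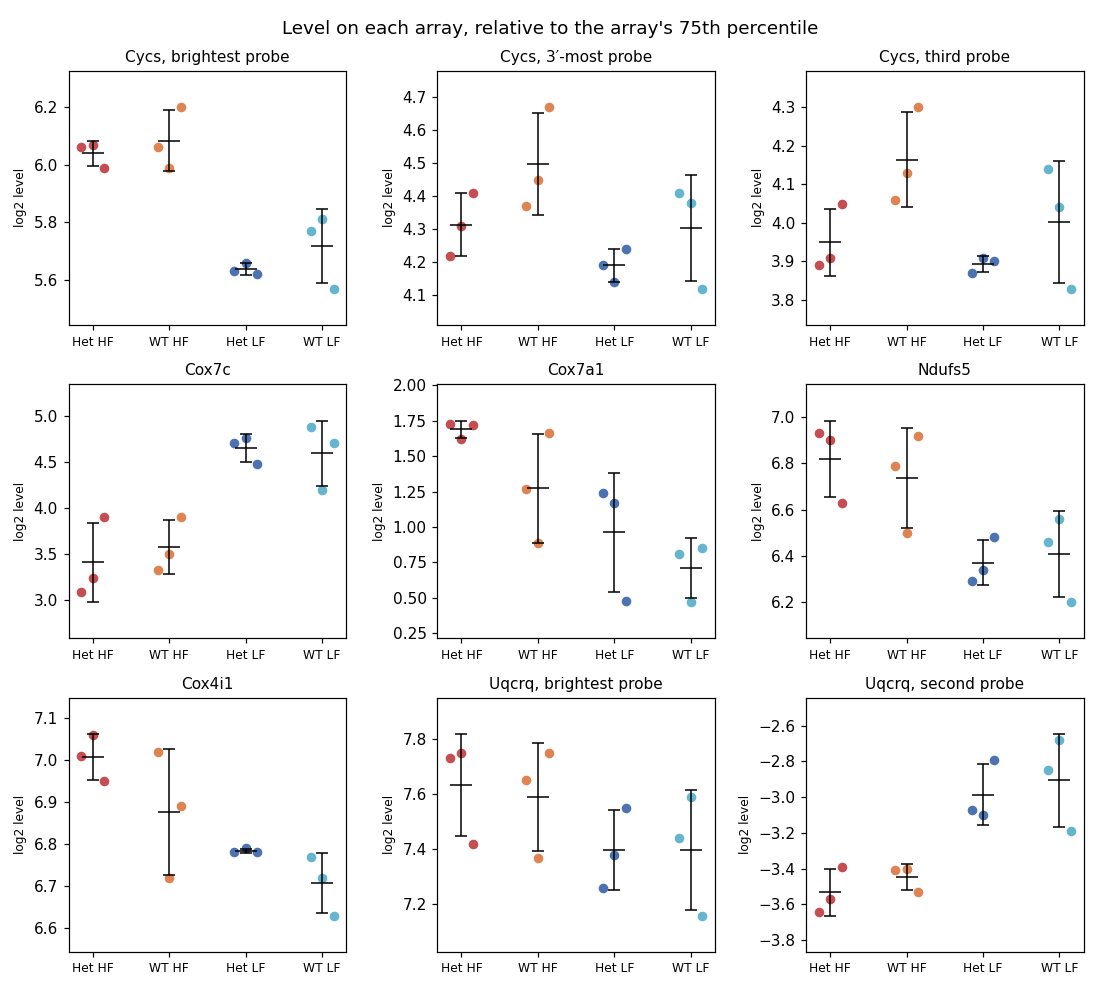
Level of named members on each array (log2, relative to the array's 75th percentile), with points for the 3 mice of a group and bars for mean ± SD. The brightest Cycs probe separates the diets, with HF arrays from 5.99 to 6.20 and LF arrays from 5.57 to 5.81, while its other probes overlap. The 2 Uqcrq probes run in opposite directions. The panels have separate vertical scales.

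Cox7c, a small subunit of cytochrome c oxidase, had the largest diet difference of the 81 members. It stood at 3.09, 3.24 and 3.90 in Het HF livers, against 4.71, 4.76 and 4.48 in Het LF livers. The values were 3.33, 3.50 and 3.90 in WT HF and 4.88, 4.20 and 4.71 in WT LF. All 6 HF arrays were below all 6 LF arrays, and replicate 3 was the highest of each HF group. In Het HF the values rose with the array's 75th percentile (975.1, 1087.7 and 1633.7). In WT HF they did not (1167.7, 1688.5 and 1151.2). The lowest LF value, 4.20, came from the LF array with the lowest percentile, 1186.2. Whether array intensity has a part in the difference was not tested. The difference was -1.24 ± 0.25 (SE) in heterozygotes (adjusted p = 0.0102), a factor of 0.423. It was -1.02 ± 0.25 in Sirt1+/+ mice (adjusted p = 0.0402) and -1.13 ± 0.17 over both (adjusted p = 0.00153). The Sirt1+/+ call was lost without any 1 WT HF array or without WT LF replicate 1 or 3, with differences of -1.18 to -0.88. It was also lost without Het LF replicate 1 or 2, which enter only the shared variance, and the adjusted p over these 7 fits was 0.0547 to 0.121.

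The single Cox7c probe spans chr13:83112800-83113677 of mm7 on the minus strand, 878 bases of genome for a probe of 60 bases. With 28.3% G and C it shares the lowest GC content among the brightest probes of the members with Ndufa8, chosen for this after its values were seen. Differences of all genes moved with probe GC, as set out below. After a GC trend was removed from each array the Cox7c difference was -0.78 ± 0.19 in heterozygotes (adjusted p = 0.0252) and -0.79 ± 0.19 in Sirt1+/+ mice (adjusted p = 0.0362). Ndufa8 moved the other way, with a difference over both genotypes of 0.22 as measured and 0.56 ± 0.13 after the same step (adjusted p = 0.00906).

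Cox7a1, the form of subunit 7a found mainly in heart and skeletal muscle and also in brown fat, stood at 1.73, 1.62 and 1.72 in Het HF and at 1.24, 1.17 and 0.48 in Het LF. In Sirt1+/+ mice it stood at 1.27, 0.89 and 1.66 on HF and at 0.81, 0.47 and 0.85 on LF. Within each genotype the diets did not overlap, though the margin in Sirt1+/+ mice was 0.89 against 0.85. The difference over both genotypes was 0.65 ± 0.16 (SE), a factor of 1.56 (adjusted p = 0.0148). In heterozygotes it was 0.73 ± 0.23 (adjusted p = 0.056) and in Sirt1+/+ mice 0.56 ± 0.23 (adjusted p = 0.158).

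Markers of other cells were read beside it, since whole liver was sampled and fewer cells of a type cannot be told apart from less RNA per cell. Of 8 skeletal muscle markers, Ckm was not well above background on any array, and of the 4 tested 1 rose over both genotypes (Tnni2, 0.63 ± 0.17) and 0 fell. The median deviation of the 4 on an array ran from -0.36 to 0.42 on HF and from -0.17 to 0.32 on LF. For these and all later marker lists, deviations and array medians are relative to each gene's mean over the WT LF arrays. Of 5 brown fat markers, Ucp1 and Dio2 were not well above background on any array. Of the 3 tested, Cidea (4.55 ± 1.14) and Cpt1b (0.68 ± 0.18) rose and Elovl3 fell (-1.25 ± 0.25). Their median deviation on an array ran from 0.32 to 1.32 on HF and from -0.20 to 0.40 on LF. Of 6 white fat markers, Lep was well above background on 0 arrays, Plin1 and Retn on 3 each and Adipoq on 7, and none of these was tested. Both tested ones rose, Fabp4 by 1.71 ± 0.20 and Cidec by 3.26 ± 0.52, with array medians of 2.04 to 3.25 on HF and -0.66 to 0.71 on LF. Which cells of the whole liver made the RNA of these marker genes is not known here. Their part in the Cox7a1 difference was not tested.

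Ndufs5, an accessory subunit of complex I, stood at 6.93, 6.90 and 6.63 in Het HF and at 6.29, 6.34 and 6.48 in Het LF. The values were 6.79, 6.50 and 6.92 in WT HF and 6.46, 6.56 and 6.20 in WT LF. The heterozygote groups were apart, and the Sirt1+/+ groups overlapped. The difference was 0.39 ± 0.11 (SE) over both genotypes (adjusted p = 0.02), 0.45 ± 0.15 in heterozygotes (adjusted p = 0.0648) and 0.33 ± 0.15 in Sirt1+/+ mice (adjusted p = 0.198). Its probe lies at chr4:123157395-123157454 of mm7 on the minus strand.

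Over all 81 tested members, these 4 included, more differences were positive than negative. In heterozygotes 57 of 81 members were higher on HF and the median difference was 0.106, while 49.5% of all genes were higher with a median of -0.004. In Sirt1+/+ mice 55 of 81 were higher, with a median of 0.058 against -0.047 over all genes. Over both genotypes the medians were 0.079 and -0.029, and 60 of 81 members were higher. Removing the GC trend left 0.041 in heterozygotes and 0.048 in Sirt1+/+ mice, and removing GC and brightness trends together left 0.037 and -0.017.

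The members' median also varied between arrays of 1 group. Deviations here are from each gene's mean over the 3 WT LF arrays. The members' median deviation was 0.134, 0.134 and -0.048 on the 3 Het HF arrays and -0.067, -0.039 and 0.050 on the 3 Het LF arrays. On WT HF it was 0.112, -0.108 and 0.176, and on WT LF 0.078, 0.050 and -0.154. The second WT HF array was thus lower than the first and second WT LF arrays. The pooled standard deviation of these medians within groups was 0.113.

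**Figure D2:**
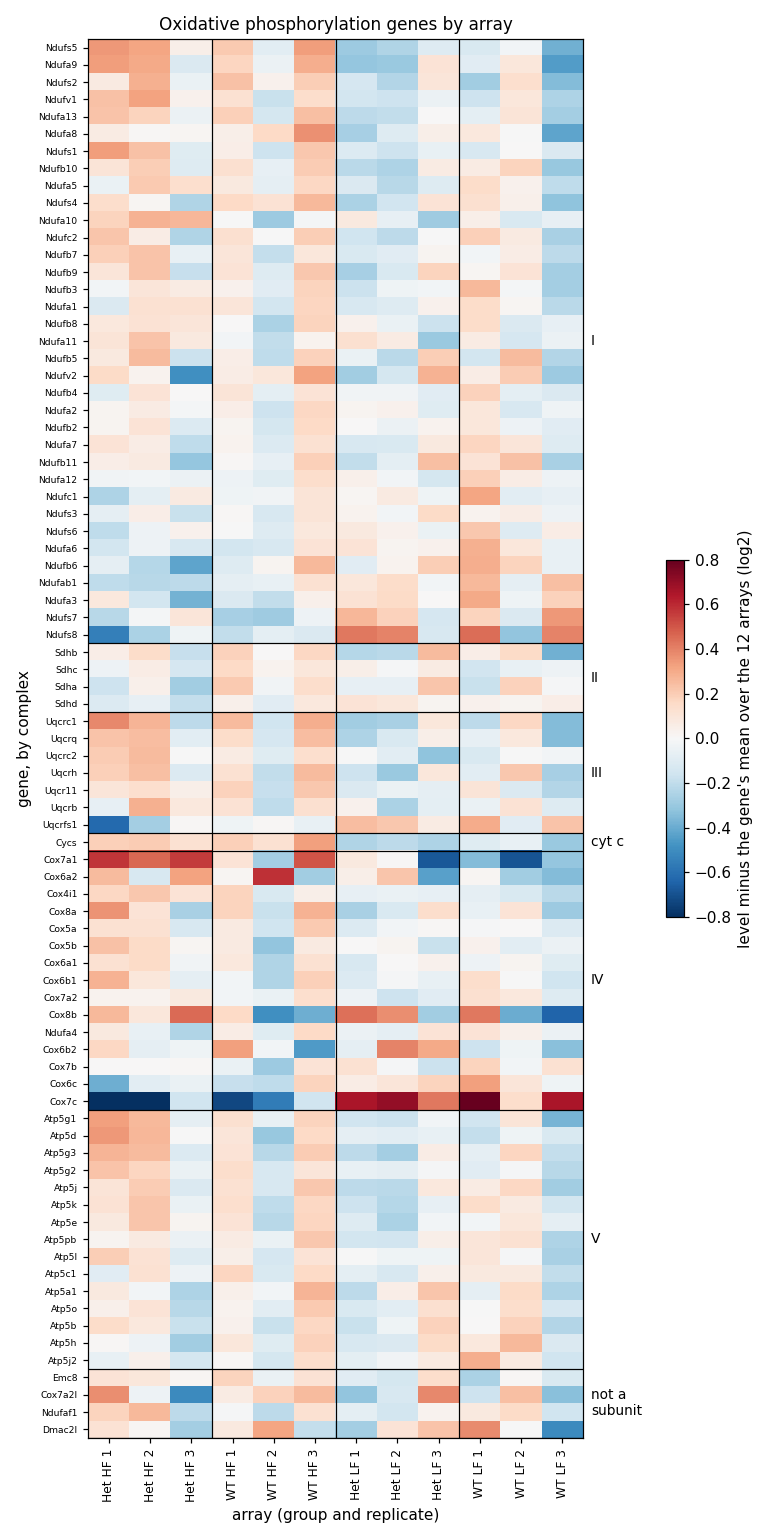
Each row is a tested member and each column an array. Colour is the log2 level minus the gene's mean over the 12 arrays, limited to 0.8 either way, with rows ordered within each complex by the diet difference. Most rows are pale and whole columns shade together, such as WT LF replicate 3, whose member median relative to the WT LF means was -0.154. Cox7c and Cox7a1 stand out among the rows.

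The members varied less between replicates than most genes. The intervals below cover that replicate spread only, not scan day, slide or the choice of scaling. In heterozygotes the 95% interval of the diet difference lay within 1.5-fold either way for 61 of 81 members (75.3%), against 32.7% of all genes. In Sirt1+/+ mice this held for 65 of 81 (80.2%), against 37.3%. For a factor of 2 the counts were 78 and 79 of 81. The exceptions were Cox7c, Cox7a1 and Ndufs8 in heterozygotes and Cox7c and Cox7a1 in Sirt1+/+ mice. The median standard error was 0.142 for members and 0.189 for all genes.

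By complex, the diet differences in heterozygotes had medians of 0.074 for complex I, -0.12 for complex II, 0.236 for complex III, 0.113 for complex IV and 0.107 for complex V. The same medians in Sirt1+/+ mice were 0.047, 0.139, 0.102, 0.007 and 0.063. Complex II, whose 4 subunits also form an enzyme of the tricarboxylic acid cycle, had opposite signs in the 2 genotypes. Sdha, its flavoprotein, differed by -0.17 ± 0.14 in heterozygotes and 0.10 ± 0.14 in Sirt1+/+ mice. Its interaction with genotype did not pass, nor did that of any other member.

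Within complex I, 0 of 35 members passed in either genotype. Ndufs5 had the lowest p in both, and Ndufs8, an iron-sulfur subunit, was at -0.51 ± 0.23 in heterozygotes. In complex III, 6 of 7 members were higher on HF in each genotype and 0 passed. The exception was Uqcrfs1, the Rieske iron-sulfur protein. It stood at 5.32, 5.67 and 5.95 in Het HF and at 6.19, 6.16 and 6.01 in Het LF. In WT HF it stood at 5.91, 5.95 and 5.88, and in WT LF at 6.24, 5.85 and 6.17. Its groups were apart in heterozygotes and overlapped in Sirt1+/+ mice. The difference was -0.48 ± 0.16 (adjusted p = 0.0714) in heterozygotes and -0.17 ± 0.16 (adjusted p = 0.535) in Sirt1+/+ mice. Uqcrc1, a core subunit, was at 0.30 ± 0.20 and 0.26 ± 0.20.

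In complex V, 12 of 15 members were higher on HF in heterozygotes and 13 of 15 in Sirt1+/+ mice, and 0 passed. The lowest p was that of Atp5d, the F1 delta subunit, in heterozygotes (0.28 ± 0.14, adjusted p = 0.201) and of Atp5g1 in Sirt1+/+ mice (0.23 ± 0.15, adjusted p = 0.374). Atp5g1, Atp5g2 and Atp5g3 encode the same subunit c of the rotor ring with different import signals. They differed by 0.26 ± 0.11, 0.15 ± 0.09 and 0.17 ± 0.12 over both genotypes, and none of the 3 passed.

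Separation of the groups was also counted without a fit. In heterozygotes the HF and LF arrays were apart for 19 of 81 members, 13 higher and 6 lower, where 36.5% of all genes were apart, 17.4% higher and 19.2% lower. The higher ones were Atp5d, Atp5e, Atp5k, Cox4i1, Cox7a1, Cox7a2, Cycs, Ndufa5, Ndufa10, Ndufb8, Ndufs5, Ndufv1 and Uqcr11. The lower ones were Cox6c, Cox7c, Ndufa6, Ndufab1, Sdhd and Uqcrfs1. In Sirt1+/+ mice 4 of 81 were apart, Cox7a1, Cycs and Sdhc higher and Cox7c lower, with 30.4% of all genes apart, 12.5% higher and 18% lower.

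**Figure D3:**
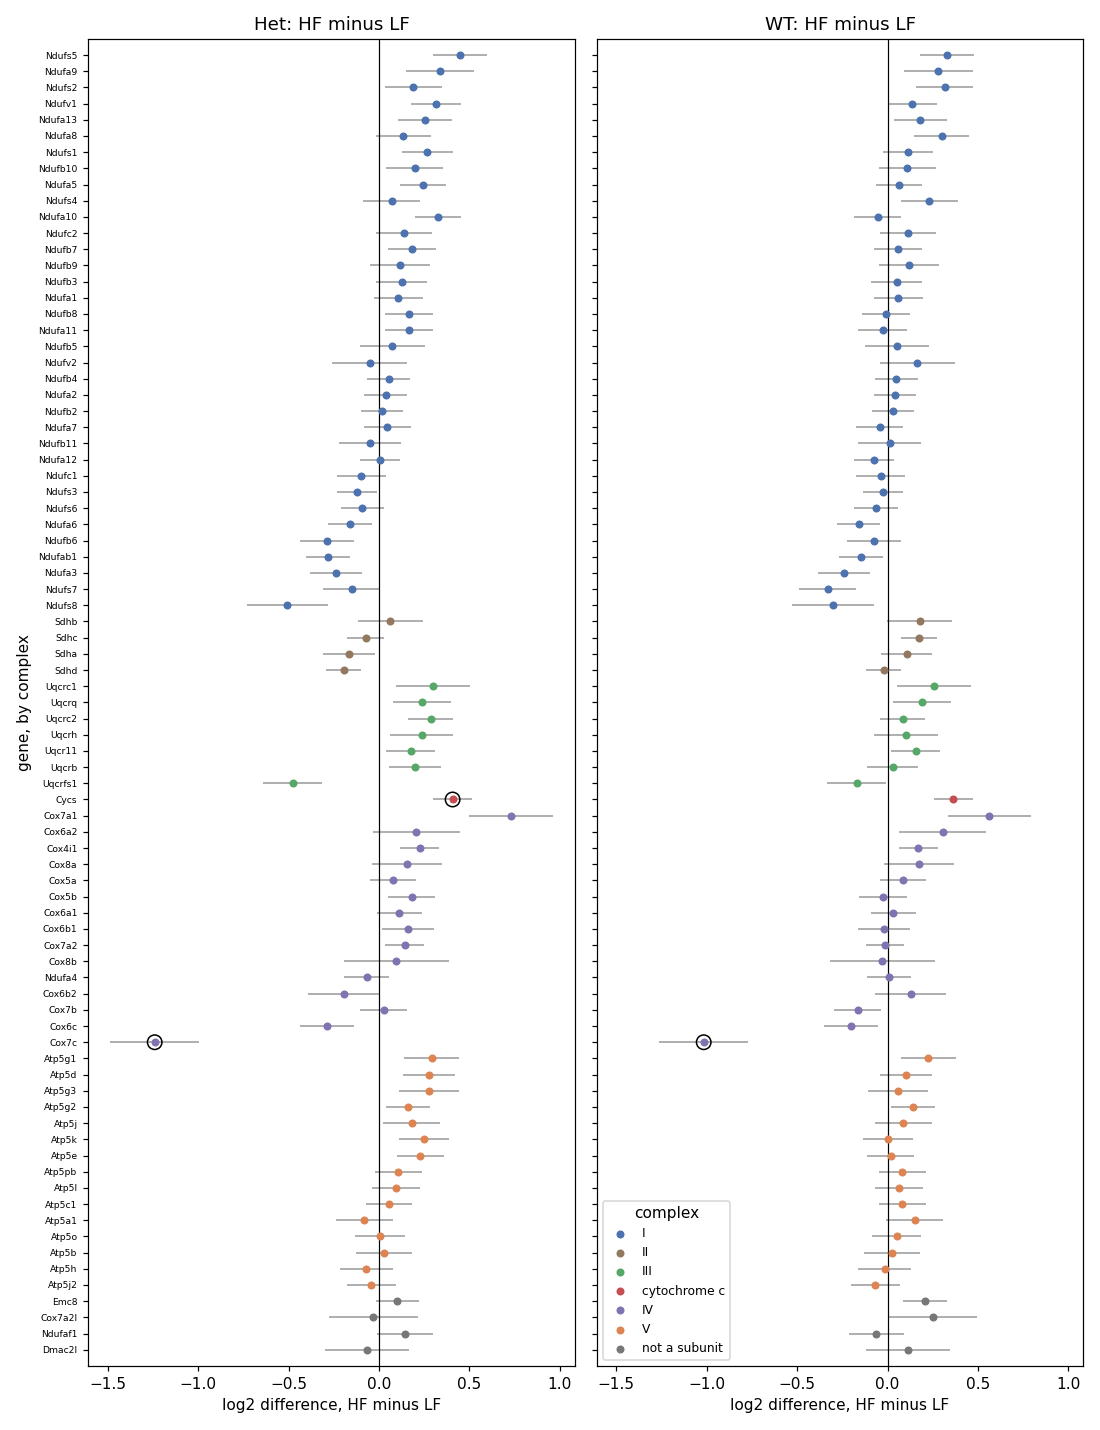
Diet difference (HF minus LF, log2) of each tested member in Het mice (left) and WT mice (right), with bars for the standard error and colours for the complex. Circled members passed the adjusted threshold: Cycs and Cox7c in Het, Cox7c in WT. Most other points lie within 0.5 of zero.

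The 2 diet comparisons share no arrays, though they share scan days and 2 of the slides hold both genotypes. Over the 81 members the differences in heterozygotes and in Sirt1+/+ mice had a Pearson r of 0.80 and a Spearman rho of 0.56. The sign was the same for 61 of 81, 46 of them higher and 15 lower on HF in both. Genes are not independent replicates, and all the points of a genotype come from the same 6 arrays.

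Differences moved with the base composition of the probes. In heterozygotes the diet difference of the members had r = 0.44 with probe GC, and that of all genes r = 0.22. Member probes of 35% up to 40% GC had a median difference of -0.05 (18 genes), and those of 55% or more a median of 0.194 (14 genes). The members' probes had a median GC of 45%, against 43.3% for all genes. In Sirt1+/+ mice r was 0.24 for members and 0.06 for all genes. After removal of the trend the members' r was -0.22 in heterozygotes and -0.04 in Sirt1+/+ mice. Cycs (0.50 ± 0.12, adjusted p = 0.0242) and Cox7c passed in heterozygotes on that scale too, and Cycs, Cox7c, Cox7a1, Ndufs5, Ndufa3 and Ndufa8 over both genotypes, 6 of 81, where 28.6% of all genes passed.

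**Figure D4:**
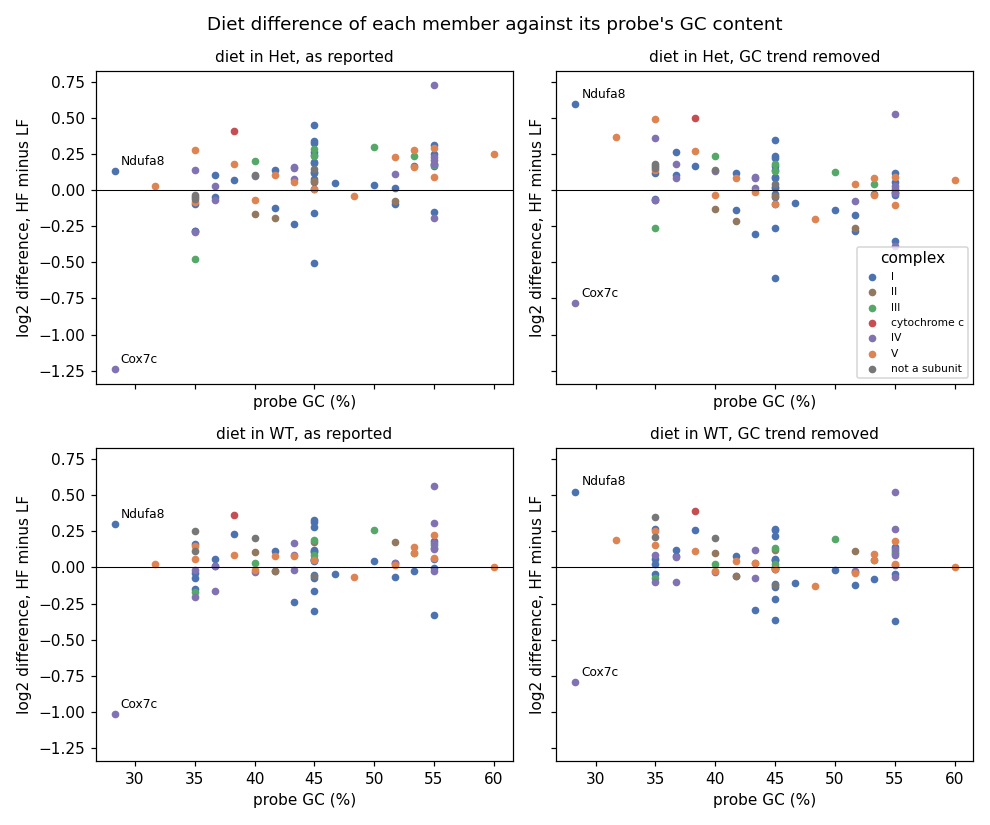
Diet difference (HF minus LF, log2) of each tested member against the GC content of its probe (%), in Het (top) and WT (bottom), as measured (left) and after removal of a GC trend from each array (right). The members' r falls to -0.22 in Het after removal, against 0.44 as measured. Cox7c and Ndufa8, both at 28.3% GC, lie on opposite sides of zero in every panel.

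Several members have paired forms for different tissues, and these were read whatever their values. Cox4i1, the common form of subunit 4, stood at 7.01, 7.06 and 6.95 in Het HF and at 6.78, 6.79 and 6.78 in Het LF. In WT HF it stood at 7.02, 6.72 and 6.89, and in WT LF at 6.77, 6.72 and 6.63. The heterozygote groups were apart and the Sirt1+/+ groups overlapped by the second WT HF array. Over both genotypes the difference was 0.20 ± 0.08 (SE), with an adjusted p of 0.0727.

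Among the other forms, the muscle genes Cox6a2 and Cox8b were at 0.26 ± 0.17 and 0.03 ± 0.21 over both genotypes, and the testis form Cox6b2 was at -0.03 ± 0.14. Their common partners Cox6a1, Cox8a and Cox6b1 were at 0.07 ± 0.09, 0.16 ± 0.14 and 0.07 ± 0.10. Cox7a2, the common partner of Cox7a1, was at 0.06 ± 0.08, and the related supercomplex factor Cox7a2l at 0.11 ± 0.17. Cox7b was at -0.07 ± 0.09 and Ndufa4, which is a subunit of complex IV despite its name, at -0.03 ± 0.09. None of these 10 passed, so within the isoform pairs the single call was Cox7a1. Whether Cox7a1 and Cox7a2 responded differently was not tested. Cox7b2 and Ndufa4l2 were not analysed here.

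Probes of the same gene disagreed for several members. Of the 83 genes, 26 have more than 1 probe, and 109 member probes could be fitted as rows of their own, a step chosen after seeing the data. Uqcrq, a small subunit of complex III, had a brightest probe at 7.73, 7.75 and 7.42 in Het HF and 7.26, 7.38 and 7.55 in Het LF, with a difference of 0.21 ± 0.11 over both genotypes. Its second probe lies 981 bases upstream in mm7 and is listed under a different transcript record. That probe stood at -3.64, -3.57 and -3.39 in Het HF and at -3.07, -3.10 and -2.79 in Het LF. In Sirt1+/+ mice that probe stood at -3.41, -3.40 and -3.53 on HF and at -2.85, -2.68 and -3.19 on LF. All 6 HF values were below all 6 LF values, and the difference was -0.54 ± 0.11 (adjusted p = 0.00491).

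The 2 Atp5h probes printed above, for the d subunit of the peripheral stalk of ATP synthase, start 40 bases apart. The brightest gave -0.04 ± 0.10 over both genotypes and the other -0.38 ± 0.11 (adjusted p = 0.0282). The second stood at 5.92, 6.18 and 6.34 in Het HF and at 6.71, 6.67 and 6.45 in Het LF, while in WT HF it stood at 6.31, 6.25 and 6.39 and in WT LF at 6.86, 6.32 and 6.69.

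Ndufab1, the mitochondrial acyl carrier protein and a complex I subunit, had 3 fitted probes. Its brightest probe was at -0.21 ± 0.09 (adjusted p = 0.0838) and its second, 3464 bases downstream, at 0.24 ± 0.08 (adjusted p = 0.0407). The remaining fitted probe, 4599 bases downstream, was at 0.05 ± 0.13 (adjusted p = 0.815). For Dmac2l, coupling factor B, the brightest probe was at 0.02 ± 0.16 and the second at -0.55 ± 0.19 (adjusted p = 0.047). No annotation of mm7 was used here, so the exon or intron under each probe is not stated.

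Genotype left these genes without a call. Of the 81 members 0 passed in Het against WT on HF, on LF or over both diets, and 0 passed the interaction of genotype and diet. The background was 0 of 17043 genes in each of these 4 comparisons (0%, limma). At an unadjusted p under 0.05 there were 1, 0, 0 and 0 members, against 1475, 341, 824 and 828 genes. The 1 member was Ndufa10, a complex I accessory subunit, at 0.34 ± 0.13 on HF (adjusted p = 0.496), and its Het HF arrays lay above its WT HF arrays.

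The median genotype difference was -0.003 on HF, with 40 of 81 members higher in Het, and -0.028 on LF, with 31 of 81 higher. All genes had medians of 0.029 and -0.003. Over both diets the members' median was -0.017, and the 95% interval lay within 1.5-fold for 79 of 81 members (97.5%) and within 2-fold for all 81 tested. For all genes the first share was 76.6%. The exceptions to 1.5-fold were Cox8b (interval -0.01 to 0.90) and Cox7a1 (-0.03 to 0.70). Members apart between genotypes were Ndufa10 and Ndufa11 (higher) and Ndufab1 (lower in Het) on HF, and Cox4i1 and Sdhc (higher) on LF. Of all genes 9.15% were apart as higher and 5.79% as lower on HF, 14.9% in all, and 1.95% and 2.4% on LF, 4.35% in all. Over both diets 0 members were apart, with 0.0352% of all genes higher and 0.0117% lower.

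Cox8b had the lowest genotype p in complex IV. It stood at -4.09, -4.26 and -3.90 in Het HF and at -4.19, -4.84 and -4.74 in WT HF. The LF values were -3.91, -3.98 and -4.63 in Het and -3.93, -4.75 and -4.99 in WT, with 1 of the 12 values not well above background. Groups overlapped on both diets, and the difference over both was 0.45 ± 0.21 (adjusted p = 0.999). In the other complexes the lowest p belonged to Ndufb6 (-0.19 ± 0.11), Sdha (-0.11 ± 0.10), Uqcrfs1 (-0.12 ± 0.12), Cycs (-0.06 ± 0.08) and Atp5h (-0.14 ± 0.10), each with an adjusted p of 0.999.

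Slides crossed genotype in part and diet not at all. On HF 1 slide held all 3 Het arrays and 1 WT array, and on LF 1 slide held 1 Het and all 3 WT arrays. With slide as a fixed block the members' median genotype difference on HF was -0.133, with 14 of 81 higher in Het, and on LF it was -0.067, with 28 of 81 higher. These are by construction the differences between arrays within each of those slides, since every other slide held only 1 group. The HF comparison within a slide rests on 1 WT HF array, replicate 3, which had the highest member median of the 12. No member passed with the block either. The genotype differences also moved with probe GC, with r = 0.54 over the members on HF and 0.14 on LF.

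**Figure D5:**
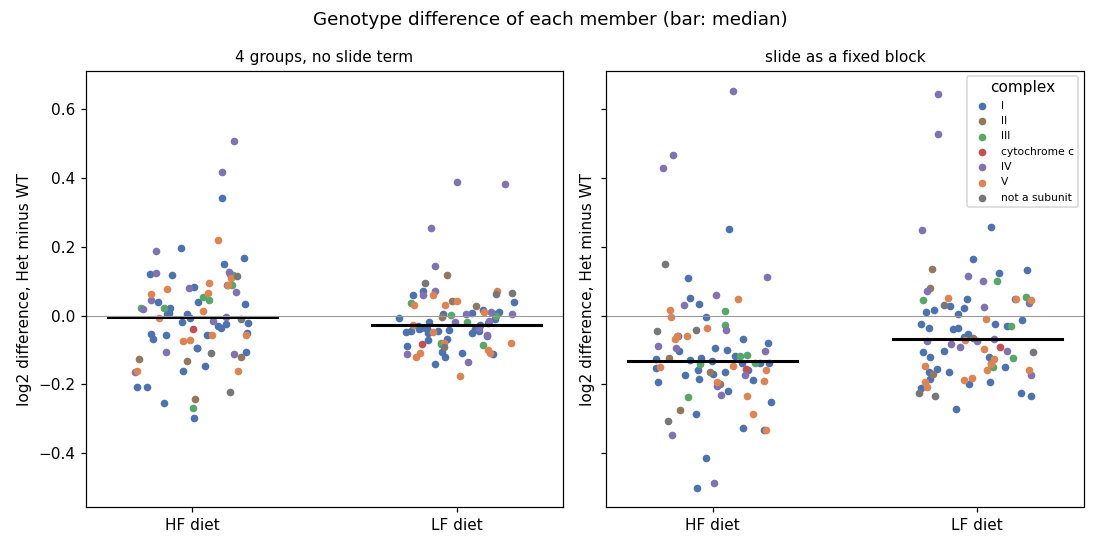
Genotype difference (Het minus WT, log2) of each tested member on the HF and LF diets, without a slide term (left) and with slide as a fixed block (right). Bars mark the median, which on HF is -0.133 with the block and -0.003 without it. Points are spread sideways for legibility.

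The genes around the chain were read from lists chosen with earlier results of these data known. Their counts are for HF against LF over both genotypes, where 30.2% of all genes passed, 13.4% higher and 16.7% lower, and no list was tested against that background. Of 20 tested regulators of mitochondrial gene expression 9 passed, all of them lower, and 11 did not. The median was -0.137, and 4 of the 20 had a positive difference. Yy1, a transcription factor known to work with PGC-1alpha, fell by 0.62 ± 0.09 (adjusted p = 0.00114). Mterf3, a regulator of mitochondrial transcription, fell by 0.67 ± 0.10 (adjusted p = 0.00118) and Polrmt, the mitochondrial RNA polymerase, by 0.68 ± 0.13 (adjusted p = 0.00447). Sirt1 is on this list by the second of its probes above, the brighter, at -0.30 ± 0.09. The first Sirt1 probe, fitted as its own row, gave -0.46 ± 0.09.

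Of 17 tricarboxylic acid cycle genes 4 passed, all higher, a share below the 30.2% of all genes, and the median was 0.193. These were Dlst (0.49 ± 0.10), Idh2 (0.48 ± 0.11), Mdh2 (0.35 ± 0.08) and Pdha1 (0.24 ± 0.08). Of 6 further subunits and partners, Atpif1, the inhibitor of ATP synthase run in reverse, rose by 0.44 ± 0.09 and Uqcr10 by 0.25 ± 0.08. Uqcr11 is on that list and among the members.

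Of 47 assembly factors 3 passed as higher and 3 as lower, again below the 30.2% of all genes, with a median of -0.003. Uqcc2, a complex III factor, was at 0.51 ± 0.13, while Sdhaf3 (-0.47 ± 0.10) and Ndufaf6 (-0.38 ± 0.09) fell. Of 47 proteins of the large mitochondrial ribosome subunit 3 were higher and 7 lower (median -0.004), with Mrpl54 at 0.41 ± 0.08 and Mrpl15 at -0.50 ± 0.12. Of 12 tested carriers and uncouplers 1 was higher, the ATP/ADP exchanger Slc25a5 (0.40 ± 0.12), and 1 lower, Dhodh (-0.40 ± 0.11). As another set of short, abundant messages, 31 proteins of the small cytosolic ribosome subunit gave 0 higher and 2 lower, Rps29 and Rps28, with a median of -0.044. In the genotype comparison over both diets 0 genes of these lists passed.

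Cell type markers were read in the same comparison, with the same 30.2% of all genes called. Of the 9 tested hepatocyte markers 6 did not pass and 3 fell, Cps1 (-1.03 ± 0.11), Ttr (-0.68 ± 0.16) and Hnf4a (-0.62 ± 0.12), and 0 rose. Their median deviation on an array ran from -0.51 to -0.08 on HF and from -0.15 to 0.21 on LF. Of 8 stellate cell and fibroblast markers 5 rose, among them Col1a1 (2.07 ± 0.34), with array medians from 0.53 to 1.0 on HF and from -0.32 to 0.41 on LF. Of 7 cholangiocyte markers, those of the bile duct lining, 4 rose and 7 of 7 were higher, with a median of 0.868. The 4 were Tspan8 (2.0 ± 0.39), Spp1 (1.86 ± 0.33), Epcam (1.07 ± 0.32) and Krt19 (0.87 ± 0.23). The array medians of this list ran from 0.39 to 1.82 on HF and from -0.15 to 0.47 on LF. Of 10 macrophage markers 2 rose, Cd68 (0.61 ± 0.14) and C1qb (0.69 ± 0.20), and 0 passed as lower. Differences in this list ran from -1.44 to 0.69 with 8 of 10 positive, so the largest was a fall that did not pass. Its array medians ran from -0.41 to 0.43 on HF and from -0.51 to 0.33 on LF. Of 7 endothelial markers Lyve1 rose (0.98 ± 0.23) and Kdr (-0.55 ± 0.10) and Cdh5 (-0.52 ± 0.12) fell, with array medians from -0.59 to -0.12 on HF and from -0.15 to 0.09 on LF. Of 7 tested lymphocyte markers Cd3e fell (-1.02 ± 0.21), and array medians ran from -0.88 to -0.31 on HF and from -0.93 to 0.50 on LF. Their part in the members' differences was not tested.

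Promoters were read from RefSeq (GRCm38.p6) as 300 bases, 250 before and 50 after the start, for the 68 members that matched by symbol. The consensus motif of NRF1, a factor named for its sites in respiratory genes, was found on either strand in 17 of 68 (25%), against 5.19% of the 27025 genes with such a window. The YY1 motif was in 4 of 68 (5.88%) against 0.755%, and the GABPA motif CCGGAAGTG in 2 of 68 (2.94%) against 2.25%. Only exact matches were counted, so a gene without one may still hold a near match. Members with the NRF1 motif had a median diet difference of 0.07 over both genotypes, and those without an exact match 0.077.

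The upstream 250 bases are given for the called genes Cycs, Cox7c and Ndufs5 and for Ndufs6, a complex I subunit whose window holds both the NRF1 and the YY1 motif and which differed by -0.08 ± 0.09 between diets over both genotypes. Capitals mark an NRF1 match. The YY1 match of Ndufs6 lies outside the bases printed. The stretches without capitals hold no exact match to any of the 3 motifs, and near matches were not marked.
Cycs, GRCm38.p6 chr6:50566570-50566819, minus strand: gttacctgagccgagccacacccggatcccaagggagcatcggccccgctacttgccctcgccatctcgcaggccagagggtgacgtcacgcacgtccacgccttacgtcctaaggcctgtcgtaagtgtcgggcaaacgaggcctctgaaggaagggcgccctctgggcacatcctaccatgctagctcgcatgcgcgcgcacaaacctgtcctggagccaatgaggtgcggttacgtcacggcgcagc
Cox7c, GRCm38.p6 chr13:86046796-86047045, minus strand: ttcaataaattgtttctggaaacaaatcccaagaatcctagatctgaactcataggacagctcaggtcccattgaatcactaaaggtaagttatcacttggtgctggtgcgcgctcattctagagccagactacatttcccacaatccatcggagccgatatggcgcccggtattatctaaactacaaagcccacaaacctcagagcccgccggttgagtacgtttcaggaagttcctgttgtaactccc
Ndufs5, GRCm38.p6 chr4:123718187-123718436, minus strand: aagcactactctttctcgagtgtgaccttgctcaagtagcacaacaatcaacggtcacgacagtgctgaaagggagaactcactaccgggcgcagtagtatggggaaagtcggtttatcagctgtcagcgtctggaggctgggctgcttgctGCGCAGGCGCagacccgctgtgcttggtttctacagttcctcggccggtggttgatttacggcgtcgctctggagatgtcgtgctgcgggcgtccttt
Ndufs6, GRCm38.p6 chr13:73328483-73328732, minus strand: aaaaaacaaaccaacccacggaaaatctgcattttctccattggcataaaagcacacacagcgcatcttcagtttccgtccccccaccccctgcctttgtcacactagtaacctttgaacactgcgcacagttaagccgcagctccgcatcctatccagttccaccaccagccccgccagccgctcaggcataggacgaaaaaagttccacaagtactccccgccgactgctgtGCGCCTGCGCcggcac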

How the data were processed

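Liver RNA of 12 mice was hybridised to 1-colour Agilent arrays (Cy3, 60-base probes, design on mm7 per the file headers), 1 per mouse. The authors deposited the scanner output of Agilent Feature Extraction 9.5, whose processed signal is a linear intensity, background-corrected by that program per the file headers, along with other columns, the spot flags for outlier, saturated and well above background. The deposited value table equals these intensities on 100% of spots.

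Spots marked as outliers were left out and spots of 1 probe averaged. Intensities were divided by the 75th percentile of the array's non-control spots and log2 was taken. The filter asked that every array of some group flag the probe as clearly over background, and that each group have 2 or more values. Genes were named by accession, then symbol, and stood for by the brightest probe. A 4-group limma model (limma 3.58.1, R 4.3.3) was fitted to 17043 genes, with Benjamini-Hochberg adjustment over all of them and a threshold of 0.05, for 7 comparisons. Residual degrees of freedom were 8, and the prior added 2.8. Precision is limited by having 12 arrays. The fit was tested on simulated data.

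GC trends were removed per array with natural splines (4 degrees of freedom). The tried alternatives were other normalizations, filters, probe choices, blocks and left-out arrays. Named genes were the called members, the lowest p in each complex, the tissue isoforms and genes with disagreeing probes. Members, lists and rules were chosen with earlier results of these data known. The replicate numbers do not pair the mice: deviations of equal numbers correlated between -0.47 and 0.46.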

Additional observations from a re-analysis of the deposited data

How the results depend on the processing

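Of 186 counts and medians recomputed under alternatives other than left-out arrays, 162 were labelled close to the reported value and 24 moved. Close meant within 1 SD between arrays (0.113) for medians and within 1.5 times for counts. That SD exceeds every reported member median, so the label does not show that a median kept its sign. In Sirt1+/+ mice 0.058 became -0.017 with GC and brightness trends removed and still counted as close. The variance trend, the replicate block and fitting only the compared groups left the medians unchanged. In heterozygotes the count of members called, 2, became 4 with quantile normalization, 6 with normexp, 1 without the filter on dim probes, 4 with GC and brightness trends removed, 1 with the mean over a gene's probes, 1 with only the 2 groups fitted, 8 with slide as a random block (estimated correlation -0.18), 1 with the replicate number as a block and 5 with a variance trend. It ranged from 1 to 4 when single arrays were left out, and the replicate block also lost Cycs (0.407, adjusted p = 0.0656). Of all genes, 4.31% (no dim-probe filter) to 31.8% (slide as a random block) passed in heterozygotes under these alternatives. No slide held both diets, so the random block does not correct a diet difference for slide. In Sirt1+/+ mice the count of 1 became 2 with quantile normalization, 2 with slide as a random block and 2 with a variance trend, and 0 without the dim-probe filter, with only the 2 groups fitted and with the replicate block. Left-out arrays gave 0 to 1. Of all genes, 0.564% (no dim-probe filter) to 21.1% (slide as a random block) passed in Sirt1+/+ mice. Over both genotypes the count of 4 became 7 under quantile normalization, 8 when arrays were scaled to their median, 8 with GC and brightness trends removed and 24 with slide as a random block, and 4 to 9 without single arrays (9 without the second WT LF array, 7 without the third Het HF array). The replicate block left it at 4. Of all genes, 13.7% (no dim-probe filter) to 51.1% (slide as a random block) passed over both genotypes. The 24 members called with the random block are 29.6% of those tested, beside that 51.1%. The members' share lay below that of all genes in every diet fit, and that difference was not tested. Scaling to the median moved the member median in Sirt1+/+ mice to 0.186, on HF between genotypes to -0.116 and in the interaction to -0.094, where it moved the median of all genes to 0.081, -0.084 and -0.089. Slide as a fixed block, which here equals the difference between arrays within 1 slide, gave -0.133 for genotype on HF. The 3 genotype comparisons and the interaction had 0 members called under every alternative run, while up to 48 of all genes passed. Second probes passed with a sign opposite to the brightest probe for Uqcrq (-0.547 in heterozygotes, -0.542 over both), Ndufab1 (0.242) and Dmac2l (-0.545). None of those brightest probes passed, so no called difference was reversed. The cause was not tested. Diet is not separable from scan day or slide in these data.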
